A study of Mus musculus with 6 samples.

Results

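The IL-6 family is a group of secreted cytokines that share the receptor chain gp130. Here 10 of its genes were followed in KMT2D KO and KMT2D WT cells from tumours of a mouse melanoma model. The genes were matched by symbol and not by any measured value, but they were chosen with earlier results of these data known. They are the ligand genes Il6, Il11, Lif and Clcf1, the receptor genes Il6st, Il11ra1, Osmr and Lifr, the transcription factor gene Stat3 and the feedback inhibitor gene Socs3. All 10 were found among the 24391 genes of the deposited count tables, and all 10 passed the low-count filter.

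Each ligand of the family binds a receptor chain and draws in gp130, the product of Il6st. The assembled receptor activates JAK kinases, which phosphorylate STAT3, and STAT3 enters the nucleus and switches on genes such as Socs3. The SOCS3 protein then binds gp130 and the JAKs and dampens the signal. In melanoma these cytokines are known as products of the tumour cells themselves and of the stroma, and as links between the tumour and inflammation.

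RNA sequencing had been done on 3 libraries labelled KMT2D KO and 3 labelled KMT2D WT. Tumours raised on the ears of iBIP mice gave the cells, on a mixed FVB and B6 background. Both groups carried Tyr-CreERT2, Rosa26-rtta and TetO-BRAFV600E together with floxed INK/ARF alleles, and both were given doxycycline and 4-OHT on the ears. Cre is driven by the tyrosinase promoter and so acts in cells of the melanocyte lineage. The KMT2D KO cells were from iBIP;KMT2DL/L mice, which have 2 floxed Kmt2d alleles, and the KMT2D WT cells from iBIP;KMT2D+/+ mice. Whether replicates were separate cultures, tumours or animals is not given in the labels, so p-values reflect the spread among the sequenced libraries alone, possibly a technical one. A difference between the groups and a difference between the tumours of origin cannot be told apart. The labels' extraction protocol speaks of cerebellar tissue, against tumour cells elsewhere in the labels.

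Total counts were 55594979 to 79718782 in the KMT2D KO libraries and 43168605 to 59360068 in the KMT2D WT libraries. Kmt2d itself averaged 74.0 ± 5.32 CPM (counts scaled to the library's TMM-adjusted total) in KMT2D KO and 89.3 ± 10.6 CPM in KMT2D WT (SD, n = 3 each), a log2 fold change of -0.27 (adjusted p = 0.0075 in edgeR). Leaving out KMT2D WT replicate 3 gave -0.17, and leaving out KMT2D KO replicate 2 ended the call (-0.21, adjusted p = 0.058 in edgeR). A gene total does not show whether a floxed part was lost. Most defining markers of melanocytes were near 0, and the identity of the cells was not tested. Of 10 melanocyte markers, 4 could be tested, of which 2 rose and 2 were not called. In both groups 8 of the 10 were under 1 CPM, and Gpr143 had no count. No library held above 0.163 CPM of Tyr, Dct or Tyrp1, while Mitf was at 53.2 CPM in KMT2D KO and 15.4 CPM in KMT2D WT. Fibroblast markers summed to 18375 to 19194 CPM in KMT2D KO and 4521 to 4850 CPM in KMT2D WT, mostly from collagen genes. Of 7 cerebellum markers, 5 were under 1 CPM in both groups, and their sum was 3.13 to 4.85 CPM in KMT2D KO and 0.992 to 1.05 CPM in KMT2D WT. The only 2 that could be tested, Cbln3 (3.05) and Syt1 (2.06), both rose.

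The start regions of 4 of the genes are shown because they hold the letters of known binding motifs and because Il6 and Il11, which differed in opposite directions, can be compared in them. They span 250 bases before to 50 bases after a RefSeq transcription start, in build GRCm38.p6, and are written 5′ to 3′ on the strand of the gene. Capitals mark matches to AP-1 (TGANTCA), NF-kappaB (GGG, then NNTTN, then CC), C/EBP (TTGCNNAA) or the STAT motif GAS (TTCNNNGAA), searched on both strands.
Il6 (chr5:30012864-30013163, plus strand): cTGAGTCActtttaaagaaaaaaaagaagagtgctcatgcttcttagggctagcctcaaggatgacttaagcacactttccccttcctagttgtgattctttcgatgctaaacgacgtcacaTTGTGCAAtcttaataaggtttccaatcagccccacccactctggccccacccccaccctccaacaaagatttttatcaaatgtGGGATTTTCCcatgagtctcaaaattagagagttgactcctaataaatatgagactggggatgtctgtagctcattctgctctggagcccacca
Il11, proximal start (chr7:4778092-4778391, minus strand): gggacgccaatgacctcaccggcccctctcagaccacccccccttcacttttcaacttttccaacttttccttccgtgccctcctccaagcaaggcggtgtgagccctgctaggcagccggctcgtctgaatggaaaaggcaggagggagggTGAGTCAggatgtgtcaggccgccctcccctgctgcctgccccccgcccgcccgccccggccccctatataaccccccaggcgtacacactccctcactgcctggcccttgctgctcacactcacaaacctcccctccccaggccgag
Lif (chr11:4257318-4257617, plus strand): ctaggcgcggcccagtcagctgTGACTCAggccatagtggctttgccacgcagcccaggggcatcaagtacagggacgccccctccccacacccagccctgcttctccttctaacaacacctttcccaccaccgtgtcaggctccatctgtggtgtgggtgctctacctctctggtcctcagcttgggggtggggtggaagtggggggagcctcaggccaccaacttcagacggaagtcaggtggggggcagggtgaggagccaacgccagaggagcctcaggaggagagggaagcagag
Socs3 (chr11:117969317-117969616, minus strand): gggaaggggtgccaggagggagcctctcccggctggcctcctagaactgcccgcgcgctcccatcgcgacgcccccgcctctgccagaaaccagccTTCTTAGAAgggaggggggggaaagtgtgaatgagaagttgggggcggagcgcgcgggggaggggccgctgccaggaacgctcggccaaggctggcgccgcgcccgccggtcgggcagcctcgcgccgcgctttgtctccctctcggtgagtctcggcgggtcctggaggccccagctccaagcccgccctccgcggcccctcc

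In Il6 the AP-1 match lay 249 to 243 bases before the start, the C/EBP match 128 to 121 bases before it and the NF-kappaB match 44 to 35 bases before it. Il11 had its AP-1 match 98 to 92 bases before the proximal start, and none of the 4 motifs matched at its distal start. Lif had an AP-1 match 228 to 222 bases before the start, and Socs3 a GAS match 154 to 146 bases before it. The table held 12 start regions for 9 of the 10 genes. AP-1 was matched in 4 of these 12, Osmr having its match just after the start, and GAS, NF-kappaB and C/EBP were each matched in 1. Among all 32851 start regions of the same length, AP-1 was matched in 7.81%, GAS in 8.30%, NF-kappaB in 4.79% and C/EBP in 10.8%. A match is a run of letters and no evidence of binding.

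Of the 10 genes, 8 were called higher and 1 lower in KMT2D KO, at an edgeR adjusted p under 0.05 over all tested genes. Of 14579 tested genes, 35.4% were called higher and 35.5% lower by the same rule, 71.0% in either direction, so a call by itself was the usual outcome. Requiring an absolute log2 fold change above 1 as well left 7 of the 10 genes higher and 1 lower, where 26.8% of all tested genes passed, 13.9% higher and 12.9% lower. Stat3 passed narrowly, at 1.05, and was at 0.94 with library size as the only scaling and at 0.98 relative to the median of its chromosome, either of which leaves 6 of the 10 genes higher. The median log2 fold change of the 10 genes was 1.26, beside 0.00 over all tested genes. In all 10 genes the KMT2D KO and KMT2D WT libraries were free of overlap, as in 74.3% of all tested genes. All 4 receptor genes and both signalling genes rose, while the ligand genes split.

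**Figure D1:**
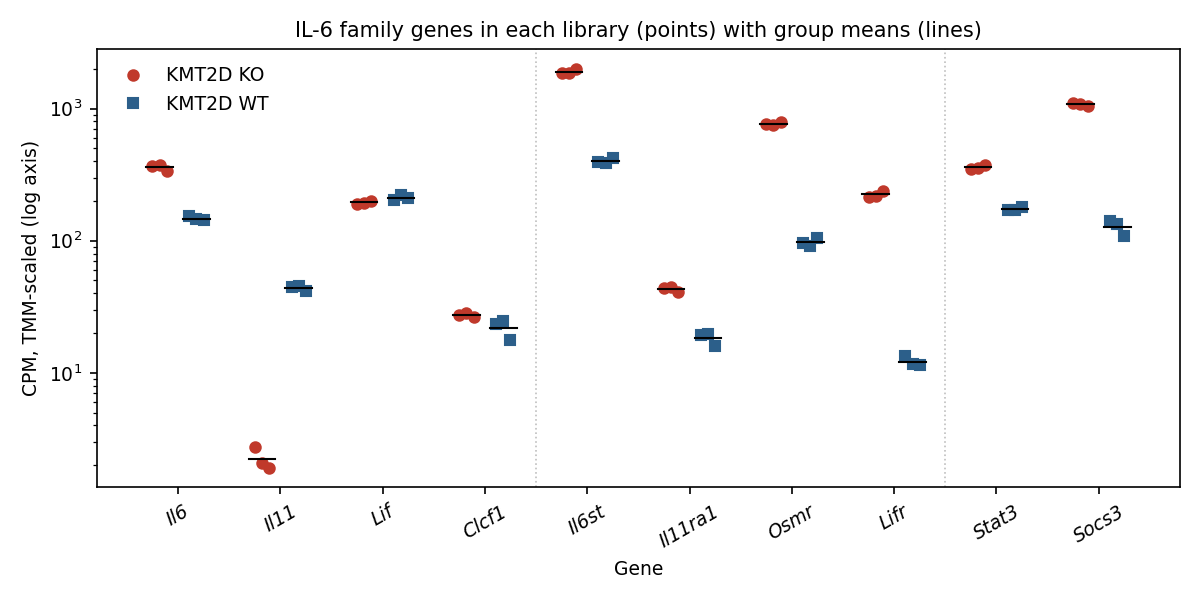
CPM (TMM-scaled, log axis) of the 10 genes in each library, KMT2D KO as red circles left of KMT2D WT as blue squares, with group means as lines and dotted lines between ligands, receptors and signalling genes. Il11 is the gene with KMT2D KO far below KMT2D WT, at 1.92 to 2.72 CPM in KMT2D KO against 41.8 to 45.7 CPM in KMT2D WT, and the receptor genes all lie higher in KMT2D KO.

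Il6 encodes interleukin 6, the founding cytokine of the family. Il6 (mm9 chromosome 5, 30339701 to 30346508, plus strand) had 369, 373 and 338 CPM in KMT2D KO replicates 1 to 3, against 153, 145 and 143 CPM in KMT2D WT replicates 1 to 3. Every KMT2D KO library lay above every KMT2D WT library. The means were 360 ± 19.6 CPM in KMT2D KO and 147 ± 5.40 CPM in KMT2D WT (SD, n = 3 each), a ratio of 2.45 and a log2 fold change of 1.29 (adjusted p = 2.8e-11 in edgeR, SE 0.06). The median over tested genes of chromosome 5 was -0.36, so Il6 went against the bulk of its chromosome. Immune cells are another known source of IL-6, and their 10 markers summed to 10.3 to 12.1 CPM in KMT2D KO and 29.2 to 35.1 CPM in KMT2D WT. Of these markers, 7 could be tested, of which 0 rose, 6 fell and 1 was not called. Over all tested genes 35.4% were called higher and 35.5% lower. Ptprc, the pan-leukocyte marker, had 0.0940 to 0.130 CPM in KMT2D KO and 0.224 to 0.906 CPM in KMT2D WT. Markers of fibroblasts, which belong to the stroma, summed higher in KMT2D KO (18375 to 19194 CPM) than in KMT2D WT (4521 to 4850 CPM). Of these 10 fibroblast markers, 6 rose and 4 fell. Which cells gave the Il6 fragments was not tested. In bulk RNA, fewer cells of a type and less RNA per cell cannot be told apart.

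Il11 encodes interleukin 11, a cytokine of stromal and tumour cells that signals through its own receptor and gp130. Il11 (chromosome 7, 4723980 to 4734459, minus strand) gave 209, 128 and 102 counts in KMT2D KO replicates 1 to 3, against 2616, 2833 and 1870 counts in KMT2D WT replicates 1 to 3. These correspond to 2.72, 2.08 and 1.92 CPM in KMT2D KO and to 44.7, 45.7 and 41.8 CPM in KMT2D WT. The highest KMT2D KO library was far under the lowest KMT2D WT library. Il11 thus fell, with a ratio of 0.0508 and a log2 fold change of -4.28 (adjusted p = 1.3e-13 in edgeR, SE 0.12). Of all tested genes, 2.55% had a lower log2 fold change.

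Lif encodes leukemia inhibitory factor, which keeps mouse embryonic stem cells undifferentiated and signals through LIFR and gp130. Lif (chromosome 11, 4157571 to 4172517) had 191, 193 and 200.2 CPM in KMT2D KO replicates 1 to 3, against 203, 223 and 209 CPM in KMT2D WT replicates 1 to 3. The ranges did not overlap, but they came within a few CPM of each other. The log2 fold change was -0.12 (SE 0.05), which was not called (adjusted p = 0.057 in edgeR). Over 14 alternatives it lay between -0.23 and -0.08, the adjusted p between 0.0013 and 0.24, and 8 of them called the gene lower. Leaving out KMT2D WT replicate 1 or 3 gave such a call, and leaving out KMT2D WT replicate 2 gave -0.08.

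Clcf1 encodes cardiotrophin-like cytokine factor 1, which binds the CNTF receptor. Clcf1 (chromosome 19, 4214238 to 4223505) had 27.4, 28.5 and 26.3 CPM in KMT2D KO replicates 1 to 3, against 23.3, 24.6 and 17.6 CPM in KMT2D WT replicates 1 to 3. All KMT2D KO libraries were above all KMT2D WT libraries, with KMT2D WT replicate 3 the lowest. The log2 fold change was 0.32 (adjusted p = 0.014 in edgeR, SE 0.11), and it was 0.20 without KMT2D WT replicate 3. With library size as the only scaling it was 0.21 and not called (adjusted p = 0.093 in edgeR, where all alternatives gave 0.00025 to 0.093). Of the 2092 exonic bases of Clcf1, 430 are shared with the annotated read-through gene Clcf1-pold4, and featureCounts by default leaves out fragments there.

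The shared receptor gene stood at a high level in both groups. Il6st (chromosome 13, 113254278 to 113297068) encodes gp130, without which none of these ligands signals. It had 1873, 1849 and 1989 CPM in KMT2D KO replicates 1 to 3, against 394, 389 and 426 CPM in KMT2D WT replicates 1 to 3. The groups were widely apart, with a ratio of 4.72 and a log2 fold change of 2.24 (adjusted p = 3.6e-14 in edgeR, SE 0.06). The tested genes of chromosome 13 had a median of -0.54, and relative to that median Il6st was 2.78 higher on the log2 scale.

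Osmr and Lifr encode the long receptor chains that pair with gp130, OSMR for oncostatin M and LIFR for leukemia inhibitory factor and its relatives. Osmr (chromosome 15, 6763577 to 6824313, minus strand) had 767, 748 and 793 CPM in KMT2D KO replicates 1 to 3, against 96.2, 91.9 and 104 CPM in KMT2D WT replicates 1 to 3. The log2 fold change of Osmr was 2.98 (adjusted p = 3.9e-15 in edgeR, SE 0.06). Lifr (chromosome 15, 7079572 to 7147489, plus strand) had 215, 218 and 238 CPM in KMT2D KO replicates 1 to 3, against 13.3, 11.6 and 11.5 CPM in KMT2D WT replicates 1 to 3. Its ratio of 18.5 was the highest of the 10 genes, a log2 fold change of 4.20 (adjusted p = 1.3e-15 in edgeR, SE 0.07). No library of either gene came near the range of the other group. Of all tested genes, 3.32% had a higher log2 fold change than Osmr and 1.61% a higher one than Lifr, while the tested genes of chromosome 15 had a median of 0.04.

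Il11ra1 encodes the receptor chain that recognises interleukin 11. Il11ra1 (chromosome 4, 41707316 to 41716346) had 43.7, 44.4 and 40.7 CPM in KMT2D KO replicates 1 to 3, against 19.3, 19.7 and 15.9 CPM in KMT2D WT replicates 1 to 3. It rose, with no overlap, by a log2 fold change of 1.23 (adjusted p = 8.0e-09 in edgeR, SE 0.09), so the receptor gene and its ligand gene Il11 changed in opposite directions. Near-identical copies such as Il11ra2 had no count in any library, and fragments that fit several copies may be missing from Il11ra1, so its level is uncertain.

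Stat3 encodes the transcription factor that carries the gp130 signal to the nucleus. Stat3 (chromosome 11, 100748124 to 100800825) had 347, 356 and 372 CPM in KMT2D KO replicates 1 to 3, against 171, 170.1 and 178 CPM in KMT2D WT replicates 1 to 3. Its log2 fold change was 1.05 (adjusted p = 1.1e-10 in edgeR, SE 0.05). Socs3 (chromosome 11, 117827401 to 117830680), the feedback inhibitor gene whose start region with its GAS match is shown above, had 1098, 1087 and 1048 CPM in KMT2D KO replicates 1 to 3, against 141, 133 and 109 CPM in KMT2D WT replicates 1 to 3. Its log2 fold change was 3.07 (adjusted p = 7.4e-14 in edgeR, SE 0.08). Both genes were clear of overlap.

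**Figure D2:**
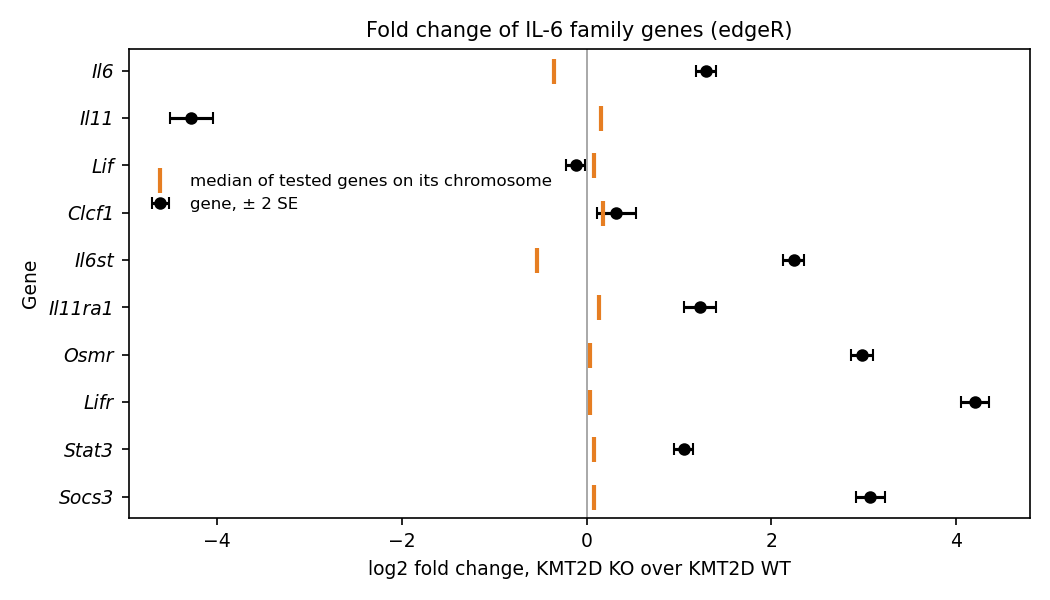
Log2 fold change of KMT2D KO over KMT2D WT for the 10 genes from edgeR, with bars of 2 standard errors on either side and an orange tick at the median of the tested genes on the same chromosome. Lifr at 4.20 and Il11 at -4.28 mark the ends, and the bar of Clcf1 reaches its chromosome's median of 0.17.

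Levels of different genes were compared per length, as TPM, the counts per exonic kilobase scaled to the same sum in every library. In KMT2D KO the order was Socs3 with 890 ± 30.9, Il6st with 785 ± 23.4, Il6 with 745 ± 49.8, Osmr with 358 ± 6.22, Stat3 with 180 ± 6.40 and Lif with 101 ± 2.52 TPM (SD, n = 3). Il6st and Il6 were neighbours in that order and overlapped, Il6st at 766 to 811 TPM and Il6 at 690.4 to 788 TPM, as did Il11ra1 and Lifr. Below them in KMT2D KO came Il11ra1 with 49.3 ± 2.94, Lifr with 48.7 ± 2.41, Clcf1 with 29.5 ± 1.67 and Il11 with 2.51 ± 0.464 TPM. In KMT2D WT the order was Il6 with 350 ± 10.9, Il6st with 192 ± 13.9, Lif with 126 ± 5.46, Socs3 with 122 ± 13.5, Stat3 with 99.96 ± 4.98 and Il11 with 56.9 ± 1.41 TPM. Osmr followed in KMT2D WT with 52.3 ± 4.54, Clcf1 with 27.0 ± 4.05, Il11ra1 with 24.1 ± 2.29 and Lifr with 3.04 ± 0.231 TPM. Lif and Socs3 overlapped in KMT2D WT, as did Il11 and Osmr, and Clcf1 and Il11ra1. Socs3 thus stood at the top in KMT2D KO and behind Il6, Il6st and Lif in KMT2D WT, and Il11 stood last in KMT2D KO and above Osmr in KMT2D WT.

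The receptor chains were also set against gp130. Osmr gave 0.456 ± 0.00591 TPM per TPM of Il6st in KMT2D KO and 0.273 ± 0.00535 in KMT2D WT (SD, n = 3 each). Lifr gave 0.0620 ± 0.00128 TPM per TPM of Il6st in KMT2D KO and 0.0159 ± 0.00181 in KMT2D WT. Il11ra1 differed the other way, with 0.0628 ± 0.00528 TPM per TPM of Il6st in KMT2D KO and 0.127 ± 0.0203 in KMT2D WT. Il6st was the most abundant of these chains in every library. Socs3 gave 4.96 ± 0.292 TPM per TPM of Stat3 in KMT2D KO and 1.22 ± 0.187 in KMT2D WT, and each of these 4 ratios kept the KMT2D KO and KMT2D WT libraries apart.

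The family has further ligands and receptors outside the 10 genes. Of 8 other ligand genes, 3 could be tested, of which 1 rose, 1 fell and 1 was not called. Ctf1, which encodes cardiotrophin 1, had 276 counts over the KMT2D KO libraries and 3 counts over the KMT2D WT libraries, all 3 in replicate 2, a ratio of 79.4 (exact 95% binomial interval 26.9 to 387, covering counting error only). Osm, which encodes oncostatin M, the ligand of OSMR, had 4 counts over the KMT2D KO libraries and 3 over the KMT2D WT libraries, so the high Osmr level came with almost no ligand transcript. Ctf2 had no count in any library, and Il27, Ebi3 and Il31 had at most 7 counts in either group.

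Of 5 other receptor genes, 3 could be tested, of which 1 rose, 1 fell and 1 was not called. Il6ra, which encodes the chain that recognises interleukin 6, had 8.84, 8.43 and 7.80 CPM in KMT2D KO replicates 1 to 3, against 17.8, 18.4 and 23.0 CPM in KMT2D WT replicates 1 to 3. It fell by 1.24 on the log2 scale (adjusted p = 1.3e-07 in edgeR), while its ligand gene Il6 rose. Cntfr, which encodes the chain bound by CNTF and by CLCF1, rose to 2.38 ± 0.116 CPM in KMT2D KO, against 0.108 ± 0.0255 CPM in KMT2D WT (SD, n = 3 each), a log2 fold change of 4.43 (adjusted p = 3.7e-08 in edgeR).

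Summed over the 12 ligand genes in TPM, Il6 made up 76.0% ± 0.700 of the pool in KMT2D KO and 47.5% ± 2.08 in KMT2D WT (SD, n = 3 each). Il11 made up 0.256% ± 0.0427 in KMT2D KO and 7.71% ± 0.111 in KMT2D WT. Lif made up 10.3% ± 0.732 in KMT2D KO and 17.1% ± 0.625 in KMT2D WT. The pool itself was 981 ± 57.3 TPM in KMT2D KO and 738 ± 11.7 TPM in KMT2D WT. Among the 8 ligand-specific receptor genes, Osmr made up 77.1% ± 0.579 in KMT2D KO and 54.9% ± 2.04 in KMT2D WT. Il6ra made up 1.21% ± 0.0954 of that pool in KMT2D KO and 16.1% ± 1.88 in KMT2D WT, and Lifr made up 10.5% ± 0.391 in KMT2D KO and 3.21% ± 0.297 in KMT2D WT. The receptor pool came to 464 ± 5.68 TPM in KMT2D KO and 95.1 ± 4.69 TPM in KMT2D WT. The groups did not overlap in any of these shares or sums, which are descriptions and were not tested.

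**Figure D3:**
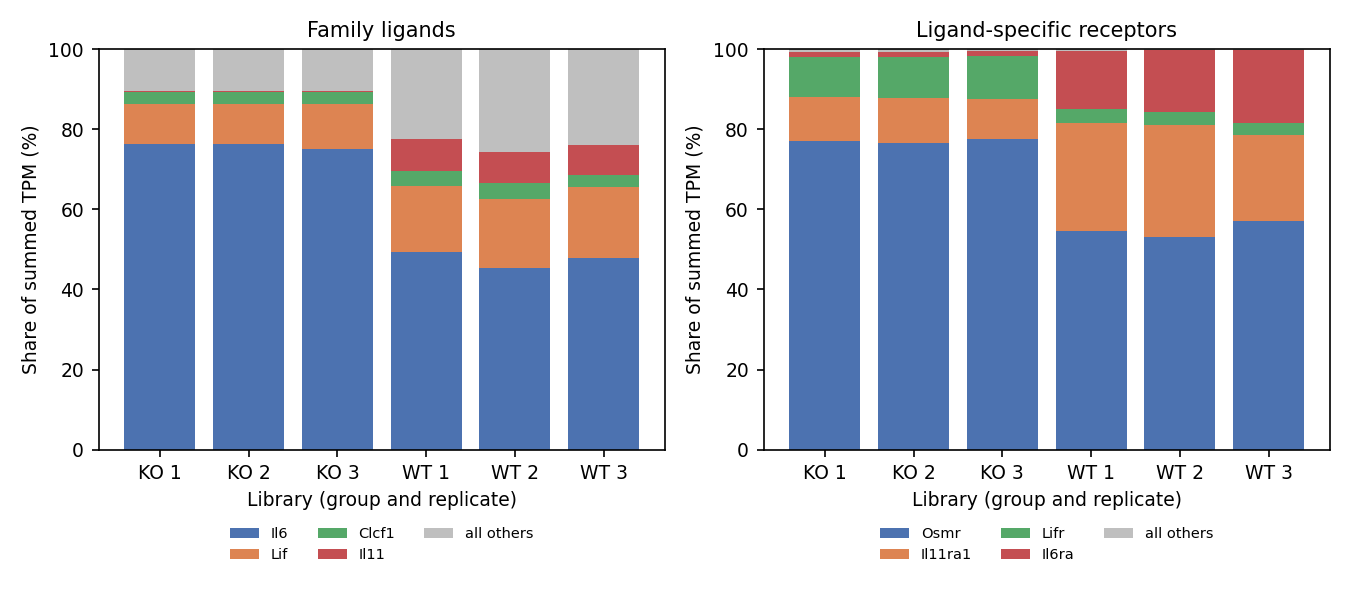
Share of the named genes and of all others together (percent) in the summed TPM of the family's ligand genes (left) and ligand-specific receptor genes (right), 1 bar per library, KMT2D KO left of KMT2D WT. Il6 fills 75.2% to 76.4% of the ligand pool in KMT2D KO and 45.3% to 49.4% in KMT2D WT, and Il6ra is a thin band in KMT2D KO.

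Genes that act close to gp130 moved both ways. Of 14 tested genes, among them the sheddase genes Adam10 and Adam17 beside those that pass the signal on, 7 rose, 4 fell and 3 stayed without a call. Their median log2 fold change was 0.14, beside 0.00 over all tested genes, of which 35.4% were called higher and 35.5% lower. The kinase gene Jak1, whose product is the main kinase of gp130, had 270 ± 6.34 CPM in KMT2D KO and 259 ± 6.64 CPM in KMT2D WT (SD, n = 3 each), 0.06 on the log2 scale and without a call (adjusted p = 0.31 in edgeR). The adaptor gene Gab1 rose with a log2 fold change of 1.39, and Stat5a, which encodes another STAT protein, with 1.07. Ptpn11, which encodes the phosphatase SHP2 that links gp130 to the MAPK pathway, fell to 190 ± 4.98 CPM in KMT2D KO, against 372 ± 10.1 CPM in KMT2D WT, a log2 fold change of -0.97 (adjusted p = 2.0e-10 in edgeR). The sheddase gene Adam10 (-0.81) and the kinase gene Tyk2 (-0.36) fell as well.

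Other brakes on the JAK-STAT pathway split, with more of them lower. Of 16 tested negative regulators outside the 10 genes, 3 rose, 8 fell and 5 stayed without a call, and the median was -0.31. Over all tested genes 35.4% were called higher and 35.5% lower, so calls in both directions were the usual outcome. Ptpn1, which encodes a phosphatase of JAK2 and TYK2, rose (1.04), as did Socs1, the inhibitor of interferon receptors (0.98, with 10.7 CPM in KMT2D KO and 5.40 CPM in KMT2D WT), and Pdlim2, which encodes a ubiquitin ligase for STAT proteins (0.46). Ptprt, which encodes a receptor phosphatase of STAT3, fell (-5.15), to 0.0631 CPM in KMT2D KO, against 2.16 CPM in KMT2D WT. Socs6 (-0.95) and Pias2 (-0.67) fell too. Among SOCS genes named after their values were seen, Socs2 (-0.54), Socs4 (-0.60), Socs5 (-0.25) and Socs7 (-0.37) were called lower as well, so that of the 7 SOCS genes Socs1 and Socs3 rose and the others fell. All 14 alternatives kept these directions, and Socs2 lost its call without KMT2D KO replicate 1.

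Known targets of STAT3 split, with Fos at the top. Of 22 tested targets, 12 rose, 8 fell and 2 stayed without a call, and the median was 0.59. Over all tested genes 35.4% were called higher and 35.5% lower. Fos, an immediate-early gene whose product forms AP-1, had 1283, 1293 and 1270 CPM in KMT2D KO replicates 1 to 3, against 40.7, 36.3 and 32.6 CPM in KMT2D WT replicates 1 to 3, a log2 fold change of 5.13. Junb, its partner in AP-1, rose by 2.89, and Cebpb, which encodes a factor that binds the C/EBP motif shown in the Il6 start region, by 2.09. The cyclin D1 gene Ccnd1 fell to 678 ± 4.48 CPM in KMT2D KO, against 1412 ± 14.7 CPM in KMT2D WT (-1.06), and the interleukin 4 receptor gene Il4ra (-1.22) and Batf (-2.90) fell as well. The highest adjusted p among these 6 genes was that of Batf, 1.15e-06 in edgeR. Several of these targets also respond to other pathways, and STAT3 activity was not measured.

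Genes of NF-kappaB signalling and of Il6 mRNA control split as well. Of 23 tested, 10 rose, 8 fell and 5 stayed without a call, and the median was 0.03. Over all tested genes 35.4% were called higher and 35.5% lower. Zfp36, which encodes tristetraprolin, a protein that promotes decay of cytokine mRNAs, rose to 533 ± 15.4 CPM in KMT2D KO, against 63.0 ± 4.61 CPM in KMT2D WT, a log2 fold change of 3.08 (adjusted p = 4.8e-15 in edgeR). The NF-kappaB inhibitor gene Tnfaip3 (2.79) and the interleukin 1 receptor gene Il1r1 (1.89) rose. The interleukin 33 gene Il33 fell (-4.15), as did Il1b (-3.08) and Arid5a (-1.04), whose product stabilises Il6 mRNA. Rela, which encodes the main NF-kappaB subunit, had 107 ± 4.26 CPM in KMT2D KO and 108 ± 5.88 CPM in KMT2D WT (SD, n = 3 each) and was not called, with a log2 fold change of -0.01 (adjusted p = 0.92 in edgeR).

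**Figure D4:**
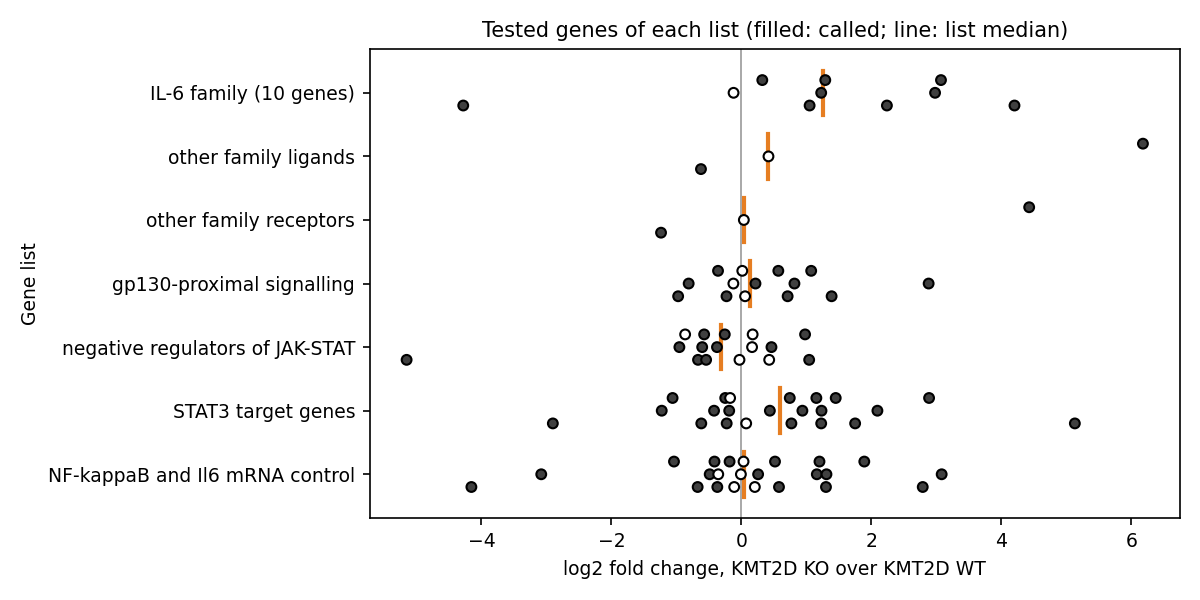
Log2 fold change of KMT2D KO over KMT2D WT for each tested gene of the IL-6 family and of 6 related lists, filled where called and open where not, with an orange line at the list's median. Medians run from -0.31 for negative regulators to 1.26 for the 10 family genes.

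Profiles like those of Il6 and Il11 were looked for among all tested genes, by the root mean square difference of centred log2(CPM + 0.5) over the 6 libraries, a scale that understates changes of low genes. Nearest to Il6 were Fam83d (0.0327), the NF-kappaB inhibitor gene Nfkbia (0.0360) and Zfand5 (0.0372). Nfkbia had 355 CPM in KMT2D KO and 143 CPM in KMT2D WT. Nearest to Il11 were Il33 (0.0686), Slc9a2 (0.0887) and Chil1 (0.102). The fitted log2 fold changes of Il33 (-4.15) and Chil1 (-4.42) were near that of Il11 (-4.28), whereas Slc9a2, with 0.115 CPM in KMT2D KO and 10.3 CPM in KMT2D WT, was at -6.41.

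The nearest tested gene on each side of the 10 genes was examined, which gave 18 genes outside the family. Of these, 11 were called higher, 4 lower and 3 were not called, with a median log2 fold change of 0.40. Over all tested genes 35.4% were called higher and 35.5% lower, 71.0% in either direction, and the median was 0.00. Osmr and Lifr are themselves neighbours, 255 kb apart, and both rose, while the genes on their outer sides differed. Rictor, 13.2 kb from Osmr, had a log2 fold change of 0.30, and Egflam, 8.63 kb from Lifr, had -0.83 and was not called. Il6 rose between Dnajb6 (-0.35) and Tyms (-0.83), which both fell. Dnajb6 was at 0.00 relative to the median of its chromosome. Beside Stat3, the neighbours Stat5a (1.07) and Ptrf (1.16), which encodes the caveolar protein cavin-1, rose by about as much as Stat3 itself. Tmem190, which lies 83 bases before the annotated start of Il11 on the opposite strand, fell too (-4.32), to 5 counts over the KMT2D KO libraries, against 94 over the KMT2D WT libraries, and its fitted value was -8.06 without KMT2D KO replicate 2. The annotated exons of the pair do not overlap, and the recorded counting command set no strand option. On the other side of Il11, Cox6b2 rose (5.79), with 646 counts over the KMT2D KO libraries and 10 over the KMT2D WT libraries, and a fitted value of 7.37 without KMT2D WT replicate 1.

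**Figure D5:**
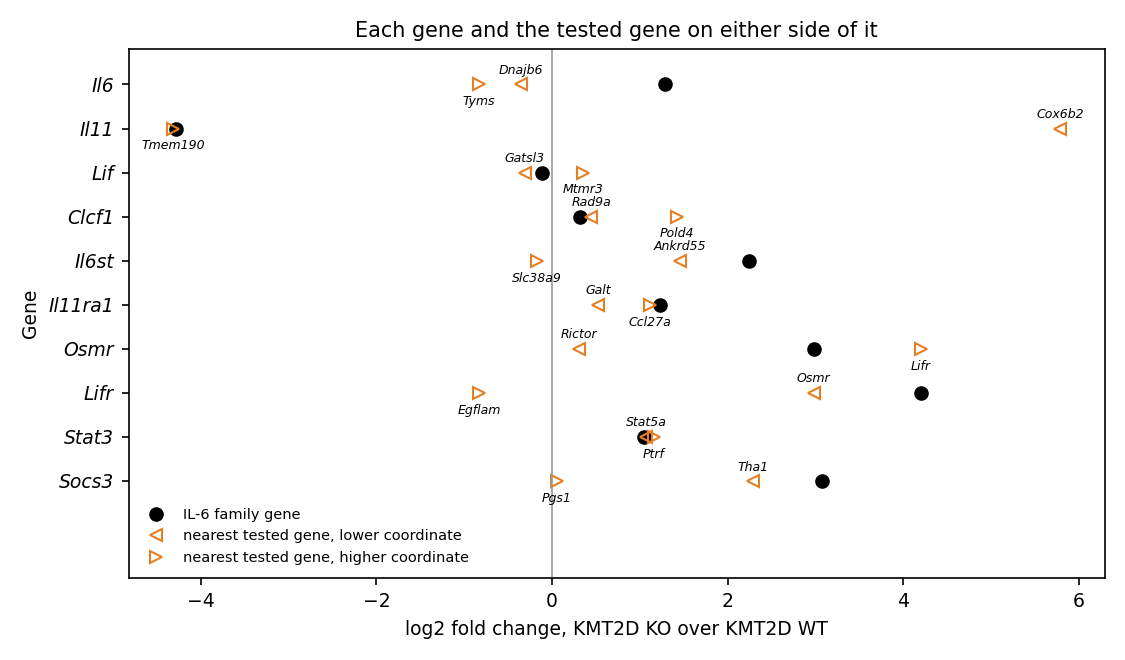
Log2 fold change of KMT2D KO over KMT2D WT for each of the 10 genes (black) and for the tested gene next to it at lower (left-pointing triangle) and higher (right-pointing triangle) coordinates. Stat3 at 1.05 lies beside its neighbours at 1.07 and 1.16, while Il6 at 1.29 lies to the right of its neighbours at -0.35 and -0.83.

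Markers of other cell types moved with the groups, and their part in the values above was not tested. All 10 fibroblast markers could be tested, of which 6 rose and 4 fell, where 71.0% of all tested genes were called. Col3a1 (3.20) and Col1a2 (1.74) rose, and Dpt (-5.69) and Twist2 (-4.04) fell. Endothelial markers summed to 0.414 to 0.626 CPM in KMT2D KO and 0.961 to 1.33 CPM in KMT2D WT, and 1 of 6 could be tested and fell. Keratinocyte markers summed to 16.6 to 17.9 CPM in KMT2D KO and 11.4 to 15.2 CPM in KMT2D WT, with 1 of 7 tested higher (Trp63, 3.77) and 1 lower (Dsp, -2.55). Schwann cell markers summed to 3.62 to 4.12 CPM in KMT2D KO and 27.8 to 33.3 CPM in KMT2D WT, with 2 of 5 higher, among them Mbp (1.48), and 2 lower (Mal, -8.61, and S100b, -4.60). Cd68 (-2.02) and Cd14 (-1.47) were the immune markers with the largest falls among those above 1 CPM.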

How the data were processed

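The authors deposited whole-number fragment counts per gene, from featureCounts 1.5.2 run on mm9 exons, per the file headers; STAR and HTSeq are named in the submitters' processing notes, without their roles. The recorded command set no strand, multi-mapping or overlap option, so fragments of several places or genes were left out by default. From these counts, library sizes were scaled by TMM, and CPM and TPM (counts per exonic kilobase, scaled to a fixed sum) were computed. Groups were compared by quasi-likelihood with edgeR 4.0.16 under R 4.3.3, with the group as the only term. The F test ran over the 14579 genes that passed the default low-count filter, with Benjamini-Hochberg adjustment, and the script was tested on simulated data. The standard error is the size of the log2 fold change over the square root of F. Genes and lists were chosen with earlier results of these data known. From each list the text names up to 3 called genes in each direction (2 for markers) with the largest fold changes and at least 1 CPM in the higher group. Jak1, Rela, the SOCS genes, genes with few counts and the melanocyte genes besides Mitf were named outside this rule, after their values were seen. Alternatives were RLE and library-size scaling, DESeq2 1.42.0, limma 3.58.1 voom, 2 other filters, robust estimation, a replicate block, glmTreat, chromosome centring and leaving out each library. Coordinates of genes are mm9 from the files, and start regions are RefSeq GRCm38.p6. Some items, among them alleles that both groups carry, are not reported here.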

Additional observations from a re-analysis of the deposited data

How the results depend on the processing

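The 14 refits of single genes leave out chromosome centring and glmTreat, the test against a fold change threshold. Over all 14, 8 of the 10 family genes kept their direction and their call. Clcf1 lost its call with library-size scaling (0.21), and Lif gained a call in 8 of the 14. The number of family genes called lower was therefore 2 in place of 1 with RLE factors, library-size scaling, DESeq2, limma voom, the filter at 1 CPM and the replicate block, and 1 to 2 when single libraries were left out; the adjusted p of Lif lay near the threshold. Tested against a fold change threshold (glmTreat, log2 of 1), 2823 genes were called in place of 10345, 1479 higher and 1344 lower. Library-size scaling shifted the all-gene median to -0.11 and turned Pgs1, which was not called, to -0.0536. Centring on the chromosome turned Dnajb6 to 0.0037, without a test. With the replicate block 10368 genes were called; same-numbered libraries had correlated deviations of 0.00645, 0.0674 and 0.0473, so the numbers were not taken to pair the libraries. The fitted log2 value of Ctf1 was 9.42 without KMT2D WT replicate 2, beside 6.18 with it. Low counts limit Ctf1, Osm and Tmem190, and Il11 in KMT2D KO. They also limit other named genes, among them Ptprt and Mal, each with 11 counts over the KMT2D KO libraries. Over the KMT2D WT libraries Cntfr had 18 counts and Cox6b2 had 10. Apart from Il11, the 10 family genes had at least 513 counts in every library.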
